A study of Homo sapiens with 12 samples.

Results

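Cytosolic ribosomal proteins are the protein subunits of the ribosomes that translate nuclear mRNAs in the cytoplasm. The genes were chosen by name from the deposited gene table: every symbol of the form RPL or RPS followed by a number and at most a final A, X or L, and in addition RPLP0, RPLP1, RPLP2 and RPSA. This rule found 81 of 38021 gene names. They comprised 31 proteins of the small subunit, 43 of the large subunit, 3 proteins of the stalk and 4 paralogs (RPL3L, RPL10L, RPL39L and RPS27L). RNA was sequenced from 786O, a clear cell renal cell carcinoma line that lacks functional VHL, and from WT8, a 786O derivative that expresses wildtype VHL. Each line carried a lentiviral short hairpin RNA, either the scrambled shControl or shBMAL1, and all cells had been selected and kept in puromycin. The 4 groups were therefore 786O shControl, 786O shBMAL1, WT8 shControl and WT8 shBMAL1, with 3 biological replicates each. WT8 stands for a single derived line, so expression of VHL and any other difference between the lines cannot be told apart.

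A ribosome is built from a small subunit, which reads the mRNA, and a large subunit, which joins amino acids and holds the tunnel through which the new chain leaves. Its proteins are needed in equal numbers, with the exception of the stalk proteins RPLP1 and RPLP2, of which each ribosome carries several copies. The mRNAs of these proteins are among the most abundant of growing cells. Most of them begin with a C and a run of pyrimidines, the 5′ terminal oligopyrimidine tract, through which mTORC1 and LARP1 set their translation. That control acts on translation and mRNA stability, and RNA sequencing of whole cells measures only the amount of mRNA.

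The first bases of the genes on which the results turn are shown to let the tract be seen. The windows were read from RefSeq promoters on GRCh38.p14, where 64 of the 81 genes matched, and hold 10 bases before the annotated start and the first 20 bases of the first exon. Capitals mark the tract, which was searched on the coding strand as a C and at least 4 further C or T that begin within 2 bases of the start, and in RPS28 also the motif CACGTG to which BMAL1 with its partners is known to bind.
RPS16: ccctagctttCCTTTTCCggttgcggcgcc
RPL27A: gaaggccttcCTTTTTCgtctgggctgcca
RPLP0: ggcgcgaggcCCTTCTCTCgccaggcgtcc
RPSA: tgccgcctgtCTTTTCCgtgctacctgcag
RPL31: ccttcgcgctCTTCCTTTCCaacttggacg
RPS28: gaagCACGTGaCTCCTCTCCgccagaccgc
RPL9: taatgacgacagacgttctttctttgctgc
RPS27L: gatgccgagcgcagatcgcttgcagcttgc
RPL15: aaggcattgtgggagtacagctctttcctt
The windows lie at chr19:39435930-39435959 on the minus strand for RPS16, chr11:8682782-8682811 on the plus strand for RPL27A, chr12:120201092-120201121 on the minus strand for RPLP0, chr3:39406710-39406739 on the plus strand for RPSA, chr2:101002279-101002308 on the plus strand for RPL31, chr19:8321486-8321515 on the plus strand for RPS28, chr4:39458903-39458932 on the minus strand for RPL9, chr15:63157458-63157487 on the minus strand for RPS27L and chr3:23917122-23917151 on the plus strand for RPL15. RPL15 has 3 annotated starts, and none of them holds a tract by this rule. The tract was found in 50 of the 64 matched genes (78.1%), against 13.0% of 27305 genes with a promoter. CACGTG, which reads the same on both strands, occurred within 250 bases before and 50 after the start in 4 of the 64 genes, namely RPL13A, RPL19, RPS19 and RPS28 (6.25%), against 8.78% of all genes. The shorter ACGTG on either strand, which every CACGTG contains, occurred in 21 of 64 (32.8%), against 24.9%.

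Library totals ran from 33182005 to 36477484 counts. ARNTL, the symbol of BMAL1 in the table, lay between 10.8 and 13.5 CPM in 786O shControl, between 3.68 and 4.08 CPM in 786O shBMAL1, between 8.40 and 10.3 CPM in WT8 shControl and between 1.49 and 1.93 CPM in WT8 shBMAL1. VHL lay between 17.6 and 21.3 CPM in the 6 libraries of 786O. It lay between 916 and 1020 CPM in WT8 shControl and between 631 and 661 CPM in WT8 shBMAL1, without overlap. Both genes thus moved as the labels would have it, and VHL was also lower with shBMAL1 in WT8. The renal markers PAX8, KRT8, KRT18 and VIM were present in all groups, and PTPRC and CD3E of leukocytes were near 0. CPM here is a count brought to the same library total with TMM factors, and changes are log2 changes with their standard error (SE) from edgeR, whose quasi-likelihood p-values were adjusted over 16838 genes by the method of Benjamini and Hochberg and called when under 0.1. In bulk RNA, fewer cells with a transcript and less of it per cell cannot be told apart.

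The 81 genes held a larger share of the counts in WT8 than in 786O, and shBMAL1 moved that share little. The share was 3.05% ± 0.0503 (SD, n = 3) in 786O shControl, with libraries from 2.99% to 3.09%, and 3.04% ± 0.0966 in 786O shBMAL1, from 2.93% to 3.10%. It was 4.31% ± 0.0645 in WT8 shControl, from 4.24% to 4.36%, and 4.17% ± 0.0556 in WT8 shBMAL1, from 4.11% to 4.22%. All 6 libraries of WT8 lay above all 6 of 786O, and the ranges of shBMAL1 and shControl overlapped in 786O and were apart in WT8. Between 3 libraries and 3 libraries an exact two-sided permutation test cannot go below 0.10, and no test was made on the shares. The 15 genes of the mitochondrial genome also took a larger share in WT8 shControl (5.03% to 5.37%) than in 786O shControl (3.38% to 3.81%). With these genes left out, the ribosomal proteins held 3.16% in 786O shControl and 4.55% in WT8 shControl.

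With shBMAL1 the counts summed over the small subunit were higher relative to those summed over the large subunit, a ratio in which the most abundant genes weigh most. The summed counts of the small subunit over those of the large subunit came to between 0.716 and 0.723 in 786O shControl and between 0.735 and 0.747 in 786O shBMAL1. In WT8 the same ratio lay between 0.680 and 0.697 with shControl and between 0.746 and 0.760 with shBMAL1. The groups did not overlap in either line. With RPL3 and RPL8, the most abundant of the large subunit, left out of the sum, the ratio lay between 0.916 and 0.926 in 786O shControl and between 0.923 and 0.949 in 786O shBMAL1, which overlapped, and between 0.895 and 0.913 in WT8 shControl and 0.934 and 0.951 in WT8 shBMAL1, which did not. By gene, 6 of the small subunit rose and 4 fell in 786O, beside 9 and 6 of the large subunit. The stalk took 0.151% to 0.156% of the counts in 786O shControl and 0.161% to 0.165% with shBMAL1 in that line. Its libraries in WT8 ranged from 0.179% to 0.191% without and from 0.220% to 0.232% with shBMAL1, so no 2 groups overlapped.

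**Figure D1:**
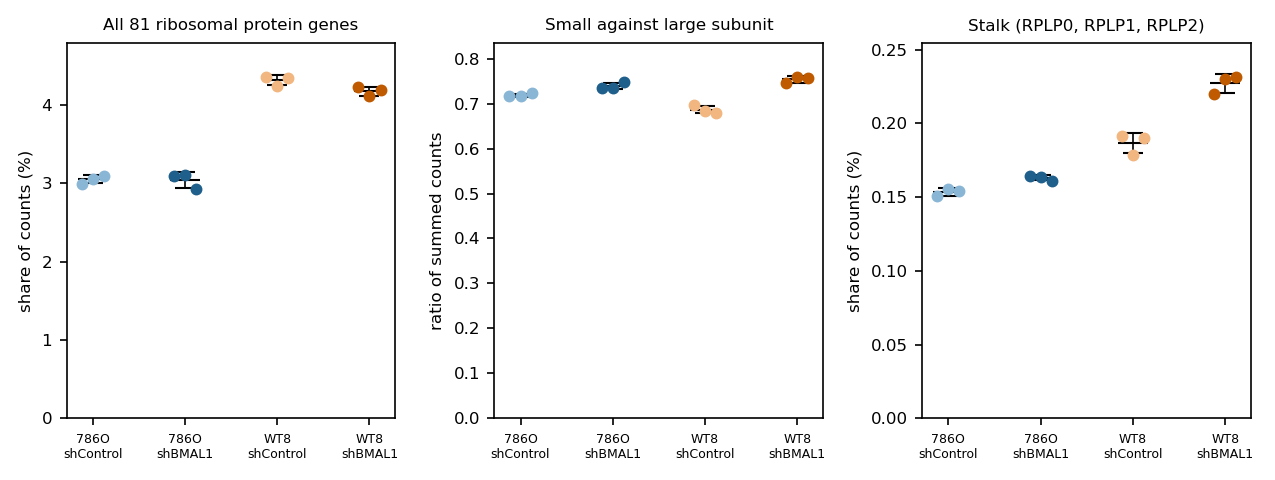
Share of all counts held by the 81 genes (left, %), ratio of the summed counts of the small to the large subunit (middle) and share of the stalk genes (right, %) in the 12 libraries, as points by group, with the mean and SD of 3. The left panel shows 3.05% and 3.04% in 786O against 4.31% and 4.17% in WT8, and the middle and right panels show higher values with shBMAL1 in both lines.

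Levels differed widely among the genes. Per kb of the MANE transcript, the mean in 786O shControl ran from 1.64 CPM per kb for RPS28 to 1976 CPM per kb for RPL8, with a median of 298 CPM per kb. RPS28, RPS27, RPS26, RPL21, RPL36A, RPL39 and RPL41 held few counts for their class. Most ribosomal protein genes have near-identical processed copies in the genome with which reads can be shared. How such reads were assigned is not stated, so the levels of these genes are uncertain. The paralogs RPL3L, a muscle form, and RPL10L, a testis form, had at most 3 counts in any library, and RPL39L had 1 to 13 counts. These 3 did not pass the filter on low counts, and 78 of the 81 genes were tested. Over the 4 groups, 36 of the 78 had their highest mean in WT8 shControl, 33 in WT8 shBMAL1, 7 in 786O shControl and 2 in 786O shBMAL1. The ratio of the highest to the lowest group mean ran from 1.05 for RPL11 to 3.38 for RPS27L.

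**Figure D2:**
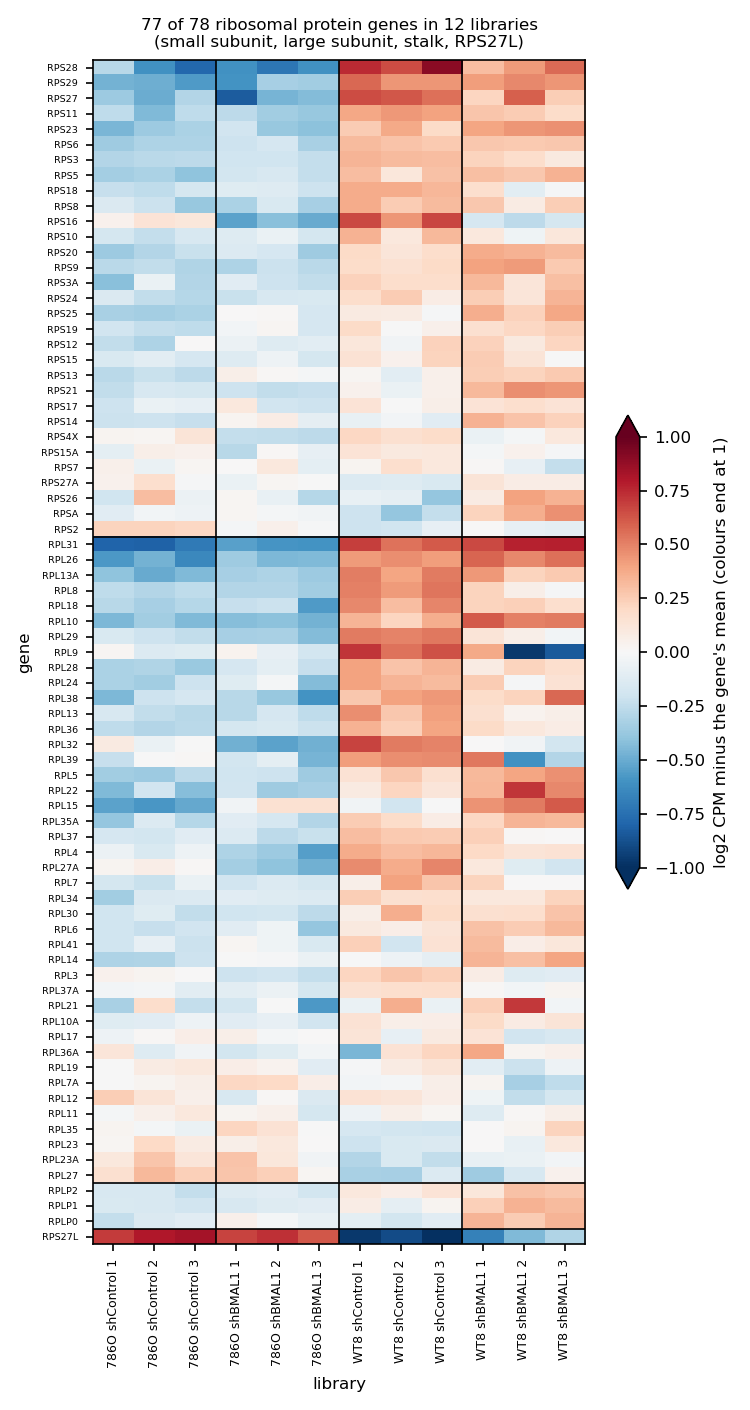
Log2 CPM of 77 of the 78 tested genes minus each gene's mean, by library (columns) and gene (rows), ordered within the small subunit, large subunit, stalk and RPS27L by the difference between the lines, with colours that end at 1 in either direction. The 6 columns of WT8 are redder than those of 786O over most rows, and RPS27L shows the reverse.

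The comparison of WT8 shControl with 786O shControl asks how the cells differ where VHL is expressed. In WT8, 60 of the 78 genes were higher and 8 were lower. In all, 87.2% were called, against 79.5% of all genes tested and 88.3% of the 2214 other genes whose mean exceeded 100 CPM. The share called higher was 76.9%, against 39.3% of all genes and 35.4% of those 2214. The share called lower was 10.3%, against 40.2% and 52.9%. The groups did not overlap for 66 of the 78 genes (84.6%), against 77.5% of all genes. The median log2 change of the 78 genes was 0.40, beside 0.00 over all genes and -0.14 over the 2214. A call with a change over 1.5-fold was made for 23 of the 78, against 49.4% of all genes. Of the small subunit 26 of 31 rose and 3 fell, of the large subunit 32 of 43 rose and 4 fell, and of the stalk RPLP1 and RPLP2 rose. For 42 of the 78 genes (53.85%) all 6 libraries of WT8 lay above all 6 of 786O, which held for 18.2% of all genes. RPS27L was the single gene with all 6 below, which held for 21.6% of all genes.

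**Figure D3:**
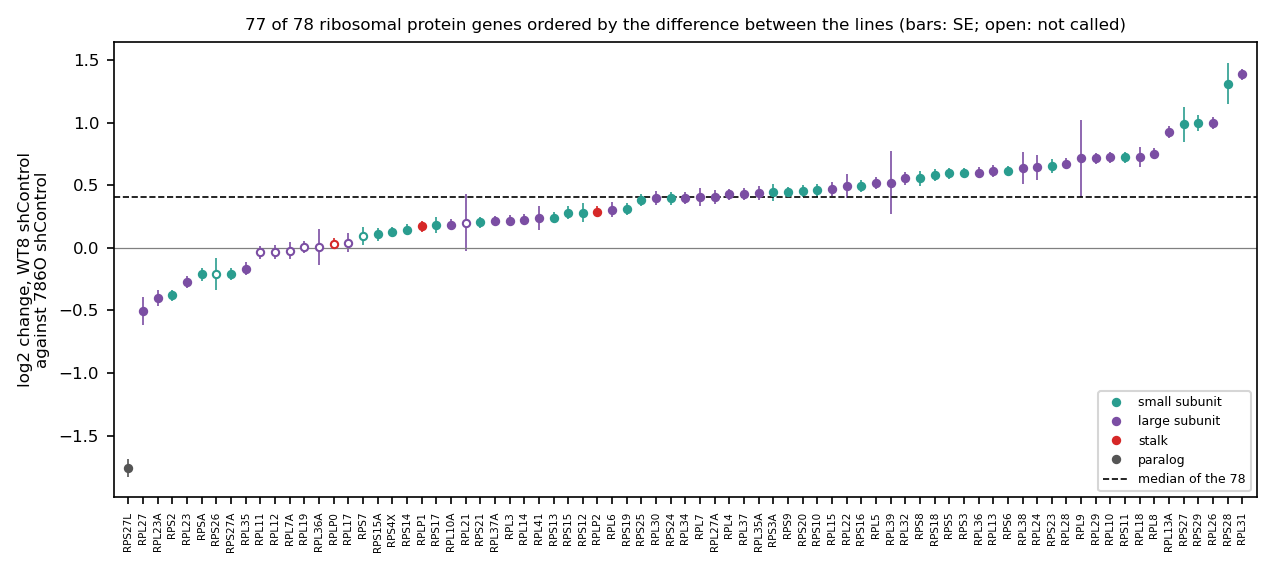
Log2 change of 77 of the 78 genes in WT8 shControl against 786O shControl in ascending order, with bars of 1 SE, coloured by subunit, filled where called. The dashed line is the median of 0.40 over all 78, and RPS27L at -1.76 and RPL31 at 1.39 are the ends of the order.

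The largest rise was that of RPL31. This protein lines the rim of the exit tunnel and stood at 382, 380 and 406 CPM in 786O shControl and at 1072, 966 and 1014 CPM in WT8 shControl. The groups lay far apart, with a log2 change of 1.39 (SE 0.05, adjusted p = 4.03e-25). RPL26, which also sits at the tunnel exit, went from 211, 226 and 201 CPM to 420, 433 and 420 CPM, a log2 change of 1.00 (SE 0.05, adjusted p = 1.03e-20). No library of the 786O group came near those of WT8. RPL8, a core protein close to the catalytic centre and the highest of all per kb, stood at 2134, 2075 and 2135 CPM against 3598, 3414 and 3674 CPM, a log2 change of 0.75 (SE 0.05, adjusted p = 8.9e-17). RPL13A, known for a second role in silencing of inflammatory mRNAs, rose by 0.93, RPL10 by 0.72 and RPL29 by 0.72 on the log2 scale. RPL5, which with RPL11 and 5S rRNA binds MDM2, rose by 0.52, whereas RPL11 had a log2 change of -0.04 (SE 0.05, adjusted p = 0.532) and had the closest group means of the 78 genes.

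Of the small subunit, RPS28, RPS29 and RPS27 rose most. RPS29, a zinc finger protein, stood at 37.4, 37.2 and 35.2 CPM in 786O shControl and 77.5, 70.5 and 70.7 CPM in WT8 shControl, a log2 change of 1.00 (SE 0.06, adjusted p = 1.51e-16). RPS28, at the exit of the mRNA, stood at 2.63, 2.09 and 1.85 CPM against 5.33, 4.99 and 5.95 CPM, a log2 change of 1.31 (SE 0.16, adjusted p = 7.36e-09). Its counts were low, from 65 to 219 per library, though the groups did not overlap. RPS27 rose by 0.99 on the log2 scale (SE 0.14) from a similarly low level. RPS6, the target of S6 kinase, rose by 0.61, RPS3 by 0.60, RPS19, the protein most often mutated in Diamond-Blackfan anaemia, by 0.31 and RPS4X by 0.13. RPS4X has a copy on the Y chromosome, RPS4Y1, which is no member by name. RPS4Y1 stood at 364 to 399 CPM in the 6 libraries of 786O and at 0 to 0.145 CPM in those of WT8, which had at most 5 counts.

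The falls were few. RPS27L, a paralog of RPS27 known as a target of p53, stood at 133, 143 and 146 CPM in 786O shControl and 42.1, 44.2 and 38.5 CPM in WT8 shControl, a log2 change of -1.76 (SE 0.07, adjusted p = 1.62e-17). It thus moved against RPS27 itself. RPL27 went from 501, 562 and 530 CPM to 357, 357 and 409 CPM, a log2 change of -0.51 (SE 0.11, adjusted p = 0.00237). RPL23A, the docking site of factors at the tunnel exit, fell by 0.40 on the log2 scale, RPS2, near the mRNA entry, by 0.38, RPL23 at the subunit interface by 0.27, RPSA by 0.21 and RPS27A, made as a fusion with ubiquitin, by 0.21. RPL9 (log2 change 0.72, SE 0.31, adjusted p = 0.0635) and RPL39 (0.52, SE 0.25, adjusted p = 0.0888) were called. The call of RPL9 was lost without each of 5 libraries in turn (adjusted p up to 0.141) and that of RPL39 without each of 10 (adjusted p up to 0.215). These fits share the estimate of spread with the shBMAL1 groups. With only the 2 shControl groups fitted, the adjusted p was 6.57e-14 for RPL9 and 2.99e-06 for RPL39. The 2 groups did not overlap for either gene. RPL41, the shortest of all, was called at 0.24 (SE 0.09, adjusted p = 0.0226) and not without WT8 shControl replicate 1 (adjusted p = 0.183).

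The comparison of shBMAL1 with shControl in 786O asks what depletion of BMAL1 does in cells without functional VHL. Among the 78 genes 16 were higher and 10 lower. That is 33.3%, against 48.9% of all genes tested and 67.8% of the 2214 other genes above 100 CPM, a share below the background. The background was 24.5% for higher and 24.4% for lower calls. The groups did not overlap for 26 of the 78 genes (33.3%), against 50.9% of all genes. The median log2 change was 0.01 and the range ran from -0.59 to 0.63. A call with a change of more than 1.5-fold was seen in 2 genes, RPL15 and RPS16, against 14.3% of all genes. Within the small subunit 6 rose and 4 fell, and within the large subunit 9 rose and 6 fell.

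RPL15, a large subunit protein mutated in some cases of Diamond-Blackfan anaemia, had the largest rise in 786O. Its level was 205, 199 and 209 CPM with shControl and 289, 331 and 330 CPM with shBMAL1, a log2 change of 0.63 (SE 0.05, adjusted p = 2.56e-11). All 3 shBMAL1 libraries stood well above the controls. RPS25, needed for translation from some viral internal entry sites, rose by 0.28, RPS13 by 0.27, RPL14 by 0.24 and RPS14, the protein lost in the 5q- syndrome, by 0.22 on the log2 scale. RPLP0 rose by 0.15 and RPS19 by 0.17.

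RPS16, whose tail reaches the decoding site of the small subunit, had the largest fall in 786O. Its level was 402, 429 and 421 CPM with shControl and 269, 291 and 274 CPM with shBMAL1, a log2 change of -0.59 (SE 0.05, adjusted p = 7.96e-12). RPL32 went from 232, 208 and 218 CPM to 156, 150 and 157 CPM (log2 change -0.50, SE 0.05, adjusted p = 6.13e-10). RPL27A went from 187, 192 and 185 CPM to 145, 139 and 131 CPM (log2 change -0.44, SE 0.06, adjusted p = 1.77e-07). The groups of these 3 genes did not overlap. RPL4, which has a loop in the exit tunnel, fell by 0.32, RPS4X by 0.31, RPL3, next to the catalytic centre, by 0.24, RPL12 at the stalk base by 0.24 and RPS2 by 0.21 on the log2 scale. RPS6 was called at 0.09 (SE 0.04, adjusted p = 0.0656), a call that was lost without each of 5 libraries in turn, at an adjusted p of up to 0.367 (without 786O shBMAL1 replicate 2).

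In WT8, where VHL is expressed, 28 of the 78 genes were higher with shBMAL1 and 28 were lower. This made 71.8%, against 69.8% of all genes and 83.9% of the 2214 other genes above 100 CPM, so their share was near the background. Of all genes 32.9% were higher and 36.9% lower. The groups did not overlap for 48 of the 78 genes (61.5%), against 67.6% of all genes. The median log2 change was 0.02, with a range from -0.97 to 0.63. Of the small subunit 12 rose and 9 fell, of the large subunit 12 rose and 19 fell, and all 3 stalk genes rose. The 5 genes called with a change over 1.5-fold were RPSA, RPL15, RPS16, RPL32 and RPL9, where 35.9% of all genes passed both limits.

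RPSA, the small subunit protein also known as the laminin receptor, had the largest rise in WT8. It stood at 262, 231 and 257 CPM with shControl and 354, 389 and 415 CPM with shBMAL1, a log2 change of 0.63 (SE 0.05, adjusted p = 4.63e-13). The groups were far apart. RPL15 went from 290, 261 and 296 CPM to 406, 427 and 455 CPM (log2 change 0.60, SE 0.05, adjusted p = 1.56e-11). RPS27L went from 42.1, 44.2 and 38.5 CPM to 51.3, 60.3 and 66.5 CPM (log2 change 0.51, SE 0.07, adjusted p = 6.61e-07), which left all libraries of WT8 below those of 786O. RPS26, at the mRNA exit, rose by 0.46 (SE 0.13, adjusted p = 0.00157) at a low level of 6.28 to 10.9 CPM in WT8. RPS21 rose by 0.40 on the log2 scale, from 204, 190 and 206 CPM to 248, 274 and 270 CPM. RPL14 rose by 0.39, RPL22, which binds RNA beside its ribosomal role, by 0.37, RPS14 by 0.36, RPL10, a late addition to the large subunit, by 0.24, RPS27A by 0.23 and RPL5 by 0.20.

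All 3 genes of the stalk, which brings the elongation factors to the ribosome, rose in WT8. RPLP0, its base, stood at 585, 551 and 578 CPM with shControl and 792, 746 and 790 CPM with shBMAL1, a log2 change of 0.44 (SE 0.04, adjusted p = 4.45e-11). RPLP1 stood at 629, 560 and 606 CPM against 702, 760 and 742 CPM, a log2 change of 0.29 (SE 0.04, adjusted p = 2.87e-07). RPLP2 stood at 626, 610 and 641 CPM against 630, 712 and 701 CPM, a log2 change of 0.12 (SE 0.04, adjusted p = 0.0155). The groups overlapped for RPLP2 and not for RPLP0 or RPLP1. In 786O the log2 changes of RPLP1 and RPLP2 were 0.03 and 0.05, and neither passed the test.

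RPS16 stood at 615, 530 and 619 CPM with shControl in WT8 and 346, 324 and 344 CPM with shBMAL1, a log2 change of -0.80 (SE 0.05, adjusted p = 4.58e-16). RPL32 fell from 347, 312 and 307 CPM to 219, 213 and 192 CPM (log2 change -0.63, SE 0.05, adjusted p = 5.3e-13). RPL27A fell from 254, 237 and 257 CPM to 197, 169 and 161 CPM (log2 change -0.51, SE 0.06, adjusted p = 3.05e-09). In each case the levels with shBMAL1 in WT8 returned to about those of 786O shControl or below. RPL29 fell by 0.46 and RPL8 by 0.39 on the log2 scale, RPS18 at the subunit contact by 0.34, RPL3 by 0.30, RPL12 by 0.26, RPL4 by 0.18, RPL28 by 0.18, RPS4X by 0.17 and RPS3 by 0.16.

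RPL9 had the lowest fitted change in WT8, and its replicates did not stand together. It was at 95.2, 84.6 and 90.3 CPM with shControl and at 75.4, 29.7 and 32.4 CPM with shBMAL1, a log2 change of -0.97 (SE 0.31, adjusted p = 0.0229). Every shBMAL1 library was below the controls, yet replicate 1 stood apart from the others. Without WT8 shBMAL1 replicate 1 the log2 change was -1.53 (adjusted p = 4.03e-19), without replicate 2 it was -0.73 (adjusted p = 0.0694) and without replicate 3 it was -0.77 (adjusted p = 0.0779). With the libraries of WT8 fitted alone the adjusted p was 0.118. RPL39, a short protein in the wall of the exit tunnel, showed the same split at 18.7, 8.56 and 10.6 CPM in WT8 shBMAL1 against 17.3, 17.9 and 18 CPM in WT8 shControl, and was not called (log2 change -0.49, SE 0.25, adjusted p = 0.117), but was without replicate 1 (log2 change -0.88, adjusted p = 3.6e-08). Around their group mean, the 78 genes had an SD over genes of 0.154 on the log2 scale in that library, 0.112 in replicate 2 and 0.0972 in replicate 3, beside 0.0573 to 0.0842 in the other 9 libraries.

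**Figure D4:**
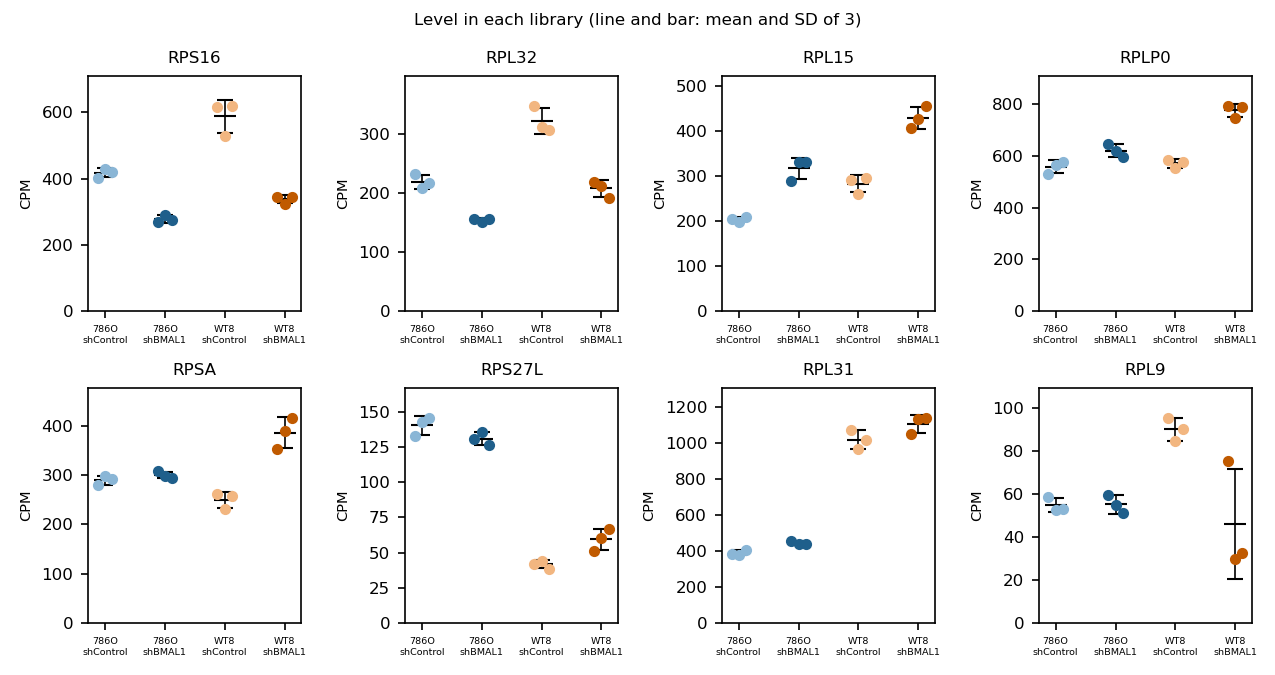
CPM of 8 genes in each of the 12 libraries (points, linear axes from 0) by group, with the mean and SD of 3. RPS16 and RPL32 are lower and RPL15 is higher with shBMAL1 in both lines, RPLP0 and RPSA rise most in WT8, RPS27L and RPL31 differ most between the lines, and RPL9 has a single high library, at 75.4 CPM, in WT8 shBMAL1.

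The changes with shBMAL1 in the 2 lines come from libraries that the comparisons do not share, though the scaling and the estimate of spread are common. Over the 78 genes Pearson's r between them was 0.535 and Spearman's rho was 0.390, beside 0.180 and 0.238 over all genes tested and 0.268 and 0.288 over the 2214 other genes above 100 CPM. These values describe genes, which are not independent replicates. Called in both lines were 23 genes, which are 88.5% of those called in 786O and 41.1% of those called in WT8, beside 77.9% and 54.6% over all genes tested. As a share of the genes tested this is 29.5%, against 38.1% of all genes. The calls with 1 direction in both lines were near the background, which was 12.4% of all genes for higher and 13.6% for lower in both. Of the 23 genes, 10 rose in both lines (RPL15, RPLP0, RPL14, RPS14, RPS25, RPL35, RPS13, RPS19, RPL31 and RPL26) and 9 fell in both (RPS16, RPL32, RPL27A, RPL29, RPL3, RPL12, RPL4, RPS4X and RPS15A). RPL36, RPL28 and RPL13A rose in 786O and fell in WT8, and RPS2 did the reverse. Under every fit that left out 1 library, 15 of the 23 remained called in both lines, with 6 higher in both, 8 lower in both and RPL28 opposite. The calls of RPS15A, RPL35, RPL36 and RPL13A in 786O and of RPS15A, RPL26, RPL31, RPS19 and RPS2 in WT8 were lost in some of these fits: the call of RPL31 without WT8 shControl replicate 2 (adjusted p = 0.108), that of RPS19 without the same library (adjusted p = 0.141), and those of the others without any of 3 to 10 libraries.

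**Figure D5:**
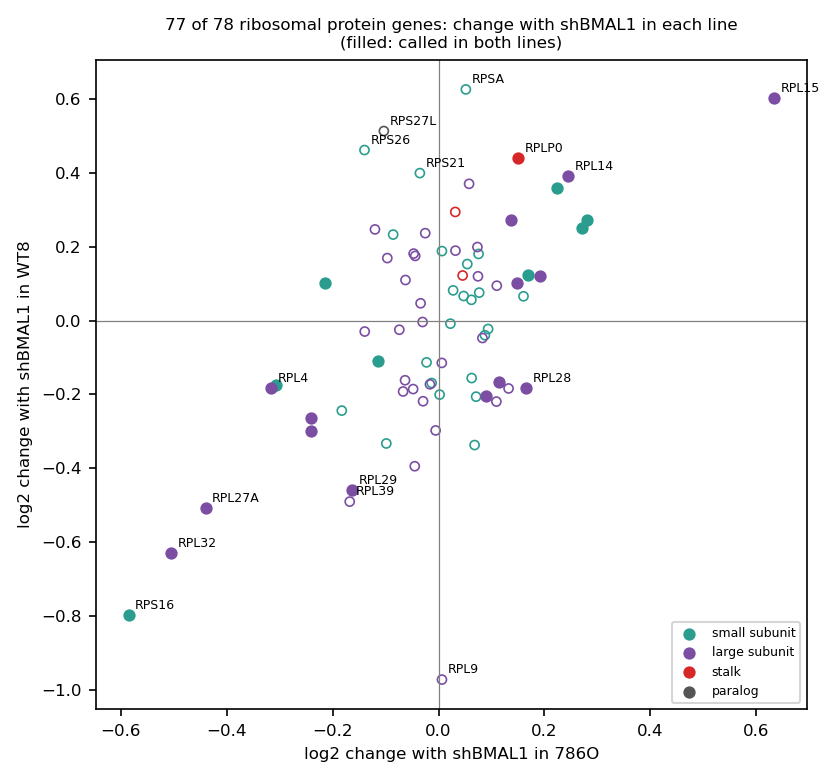
Log2 change with shBMAL1 in 786O (horizontal) and in WT8 (vertical) of 77 of the 78 genes, coloured by subunit, filled for the 23 called in both lines. RPS16, RPL32 and RPL27A lie at the lower left and RPL15 at the upper right, while RPSA, RPS27L, RPS26 and RPL9 lie near 0 on the horizontal axis.

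The difference between the lines in the response to shBMAL1 was tested as an interaction, the log2 change in WT8 minus that in 786O. It was called for 34 of the 78 genes (43.6%), against 56% of all genes and 76% of the 2214 other genes above 100 CPM, with 17 in each direction, where 27.4% of all genes were higher and 28.5% lower. With size factors of the DESeq2 kind in place of TMM the split was 14 higher and 22 lower, with library totals alone 15 and 22, and with mitochondrial genes left out 20 and 14, so the split moved with the scaling. An interaction over 1.5-fold was called for 2 of the 78 genes, against 29.3% of all genes. RPS27L had an interaction of 0.62 (SE 0.10, adjusted p = 7.53e-06), RPS26 of 0.60 (SE 0.18, adjusted p = 0.00504), RPSA of 0.58 (SE 0.07, adjusted p = 2.14e-08) and RPS21 of 0.44 (SE 0.06, adjusted p = 6.06e-07). RPS27A stood at 0.32, RPS2 at 0.31, RPLP0 at 0.29 and RPLP1 at 0.26. Among the called genes at the negative end RPS18 had an interaction of -0.41 (SE 0.07, adjusted p = 6.62e-06), RPL8 of -0.35 (SE 0.07, adjusted p = 2.7e-05) and RPL28 of -0.35 (SE 0.06, adjusted p = 1.49e-05). RPL24, which bridges the subunits, stood at -0.33 (SE 0.14, adjusted p = 0.073), RPL7A at -0.32 and RPL29 at -0.30. The lowest estimate of all was that of RPL9, at -0.98 (SE 0.44, adjusted p = 0.101), which was not called. Without WT8 shBMAL1 replicate 1 it was -1.53 (adjusted p = 1.11e-15). RPL39 went from -0.32 (SE 0.36, adjusted p = 0.507) to -0.71 (adjusted p = 0.000219) without that library. The call of RPL24 was lost without each of 9 libraries in turn. For RPL15, RPL32 and RPL27A the interaction did not pass the test, with estimates of -0.03 (SE 0.07), -0.13 (SE 0.07) and -0.07 (SE 0.08).

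The features read from sequence were counted by response. With a promoter matched, the tract was held by 13 of 14 genes that rose with shBMAL1 in 786O, by 6 of 8 that fell and by 31 of 41 that were not called. In WT8 it was held by 19 of 23 that rose, 19 of 23 that fell and 12 of 17 not called. Among the genes without a tract by the search rule were RPL15, RPS27L and RPS26 of the leading rises in WT8 and RPL9, RPL4 and RPS4X of the falls. The windows of RPL15, RPL9 and RPL4 hold a run of pyrimidines further past the annotated start than the rule allows. Those of RPS26 and RPS4X hold a run past the start that begins with T. The window of RPS27L holds no such run. Whether transcripts begin at these runs was not tested. Of the 4 genes with CACGTG, RPL13A and RPS19 were called higher in 786O. In WT8 RPL19, RPL13A and RPS28 were called lower and RPS19 higher. Of all genes tested 48.9% were called in 786O and 69.8% in WT8, and 4 genes are too few to set against these shares. The call of RPL13A in 786O was lost without each of 4 libraries in turn and that of RPS19 in WT8 without 1. The call of RPS28 in WT8 (adjusted p = 0.053) was lost without each of 3 libraries in turn, at an adjusted p of up to 0.193. Over the 78 genes, Pearson's r of the log2 changes with transcript length or GC content lay between -0.189 and 0.145 in the 4 comparisons.

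The genes around the ribosome were counted in lists, to be set beside the shares over all genes tested. Of all genes, 24.5% were called higher and 24.4% lower with shBMAL1 in 786O, and 32.9% and 36.9% in WT8. Between the shControl groups 39.3% of all genes were higher and 40.2% lower in WT8. Of 7 tested ribosomal proteins and paralogs outside the name rule, 1 rose and 3 fell with shBMAL1 in 786O, and 4 rose and 1 fell in WT8. FAU, the source of the small subunit protein eS30, which is made as a fusion with a ubiquitin-like domain, rose with shBMAL1 in WT8 by 0.39 on the log2 scale. RPL22L1, the paralog of RPL22, fell in 786O by 0.47 and rose in WT8 by 0.24. A list of 20 translation factors and other mRNAs was taken from general knowledge as starting with a tract, which was not looked up for each of them. Of these 20, 8 rose and 7 fell in 786O, and 10 rose and 5 fell in WT8. Between the shControl groups 15 were higher and 4 lower in WT8 than in 786O. EEF1A1, the factor that delivers tRNA, stood at 1325, 1381 and 1397 CPM in 786O shControl, 650, 593 and 648 CPM in 786O shBMAL1, 1476, 1510 and 1486 CPM in WT8 shControl and 856, 819 and 782 CPM in WT8 shBMAL1. Its log2 changes with shBMAL1 were -1.12 and -0.86, beside a lowest value of -0.59 among the 78 ribosomal protein genes in 786O and of -0.97 in WT8, and it too has near-identical copies. EEF2, which moves the ribosome along, had log2 changes of 0.01 and -0.10, and RACK1, a protein of the small subunit with a name outside the rule, fell by 0.33 in 786O and by 0.25 in WT8.

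Of 14 genes of the mTORC1 pathway, 3 rose and 5 fell with shBMAL1 in 786O, and 7 rose and 6 fell in WT8. Between the shControl groups 5 of the 14 were higher and 6 lower in WT8. LARP1, which binds the tract, rose in both lines, by 0.32 and 0.40 on the log2 scale, and RPTOR, the scaffold of mTORC1, fell by 0.40 and 1.03. MTOR itself fell by 0.12 in 786O and rose by 0.47 in WT8. Of 12 chaperones and release factors of ribosomal proteins, 4 rose and 3 fell in 786O and 3 rose and 4 fell in WT8, and 7 were higher and 4 lower in WT8 shControl than in 786O shControl. The mitochondrial ribosomal proteins make up a separate ribosome that translates the mitochondrial genome. Of 77 such genes, 34 rose (44.2%) and 6 fell (7.79%) with shBMAL1 in 786O, against 24.5% and 24.4% of all genes. In WT8, 58 rose (75.3%) and 4 fell (5.19%), against 32.9% and 36.9%. The medians were 0.07 in 786O and 0.29 in WT8. Between the shControl groups 38 were higher (49.4%) and 27 lower (35.1%) in WT8, against 39.3% and 40.2%, with a median of 0.06. No test was made between these lists.

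The proliferation genes moved with the groups of WT8. The 10 genes on this list, MKI67 and TOP2A among them, held 0.224% to 0.229% of the counts in 786O shControl and 0.225% to 0.233% with shBMAL1 there. In WT8 they held 0.0515% to 0.0537% with shControl, and with shBMAL1 the range was 0.229% to 0.232%. Between the shControl groups all 10 were lower in WT8, where 40.2% of all genes were lower. With shBMAL1 all 10 rose in WT8, where 32.9% of all genes were higher. In 786O, 3 of the 10 rose and 2 fell with shBMAL1, beside 24.5% and 24.4% of all genes. The part of proliferation in the changes of single ribosomal protein genes was not tested. MYC, a known driver of ribosomal protein genes, stood at 112 to 118 CPM in 786O shControl and at 165 to 170 CPM with shBMAL1 there. Its WT8 libraries ran from 277 to 305 CPM with shControl and reached 312 to 345 CPM with shBMAL1.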

How the data were processed

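RNA of 12 samples was sequenced as stranded mRNA libraries. Per the methods of the study, reads were aligned to GRCh37 with SeqMan NGen and counts exported from ArrayStar, whereas the submitters' processing notes name STAR, DESeq2 and hg38. The table has no coordinates. The authors deposited estimated counts per gene, not scaled between libraries and not the whole read counts that the design of the tests had presumed. A value of 0.028 stood for 0 (47.0% of values) and was set to 0. Lines sharing a name (45 names) were summed and values rounded to whole numbers. The choice of genes and lists was made with earlier results of these data known.

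Genes were filtered with filterByExpr (16838 of 26925 genes with a count kept), scaled by TMM (factors 0.948 to 1.04) and tested with a mean per group over the 12 libraries by the robust quasi-likelihood F test of edgeR (version 4.0.16, under R 4.3.3). The common biological coefficient of variation was 5.70%. The threshold is the false discovery rate of 0.1 that the study uses. The labels call the replicates biological and do not say how they were grown. Named genes were, per comparison, the 6 largest rises and 6 largest falls among called genes with a mean of at least 50 counts, whose groups did not overlap where 2 groups were compared, and a fixed set of well known members. A gene that the rule picked is not reported here, though the counts include it. Genes outside this rule are named only where a count of 5 or fewer or a list of calls needed them, after their values were seen. The fit was tested on simulated data. Alternatives were other scalings, no filter, DESeq2, a replicate block, only the groups compared, mitochondrial genes left out, a fold limit and each library left out. Readthrough lines added and RPL3 and RPL8 left out of the subunit ratio were chosen after seeing the data.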

Additional observations from a re-analysis of the deposited data

Results flagged for a closer look

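In 26 of the named genes the change with shBMAL1 differed between WT8 and 786O by the interaction of the edgeR fit, given here as the log2 change in WT8 minus that in 786O. All of these concern 3 libraries a group, and 56% of all genes tested were called for this interaction. The difference was positive for RPS27L (0.62), RPS26 (0.60), RPSA (0.58), RPS21 (0.44), RPS27A (0.32), RPS2 (0.31), RPL22 (0.31), RPLP0 (0.29), RPL10 (0.26), RPLP1 (0.26), RPL23 (0.23), RPL23A (0.22), RPL14 (0.15), RPS14 (0.14), RPL4 (0.13) and RPS4X (0.13). It was negative for RPS18 (-0.41), RPL8 (-0.35), RPL28 (-0.35), RPL24 (-0.33), RPL7A (-0.32), RPL29 (-0.30), RPL13A (-0.28), RPS3 (-0.22), RPS16 (-0.21) and RPS6 (-0.12). RPS16 fell in both lines and more so in WT8, whereas RPL4 and RPS4X fell in both and less so in WT8. The call was lost without each of 11 libraries in turn for RPS6, 9 for RPL24, 6 for RPL4, 5 for RPL22, 4 for RPS14, 4 for RPS4X, 3 for RPL14 and 3 for RPL23A. For the other 18 genes it held under every fit that left out 1 library.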

How the results depend on the processing

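No value changed direction with a call lost to the opposite side. With a limit of 1.5-fold added, the genes called numbered 2 for shBMAL1 in 786O, 5 for shBMAL1 in WT8, 23 between the lines and 2 for the interaction, against 14.3%, 35.9%, 49.4% and 29.3% of all genes tested. With library totals alone the median between the lines was 0.52, and that of all genes moved to 0.118. Without mitochondrial genes the shares were 3.16%, 3.17%, 4.55% and 4.40% in 786O shControl, 786O shBMAL1, WT8 shControl and WT8 shBMAL1. With each library left out in turn, 22 to 30 genes were called for shBMAL1 in 786O, 51 to 59 in WT8, 64 to 68 between the lines and 27 to 42 for the interaction, with medians of -0.01 to 0.04, -0.01 to 0.03, 0.38 to 0.42 and -0.05 to 0.00, and shares of 3.03% to 3.08%, 3.01% to 3.10%, 4.29% to 4.35% and 4.15% to 4.20%. Of the calls, 21 of 26, 44 of 56, 64 of 68 and 22 of 34 held in every such fit. The replicate numbers did not pair the samples: deviations of libraries with the same number had correlations from -0.046 to 0.048. A fit with the replicate number as a block called 25, 57, 67 and 33 genes. The other 173 main values stayed within 1.5 times or 1 SD, and of the values of single genes 112 lost and 45 gained a call. Summing pseudogene lines was not run, since no line analysed here carried such a name. Depth limits RPS28, RPS27, RPS26, RPL21 and RPL39, and whether reads of near-identical copies were shared was not tested.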

Other observations

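Readthrough lines RPL17-C18orf32, RPL36A-HNRNPH2 and RPS10-NUDT3, which join a ribosomal protein gene with its neighbour, held 2152 to 2281 counts per library in 786O shControl. Their log2 changes in WT8 shControl against 786O shControl were -0.02, 0.96 and 0.46, the last 2 of them called. RPL36A itself had 164 to 301 counts per library and was not called in any comparison. RPL7L1, a nucleolar relative of RPL7 that is no member by name, fell with shBMAL1 by 0.32 in 786O and by 0.74 in WT8 on the log2 scale.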
